A study of Oryza sativa Japonica Group and Oryza sativa Indica Group and Oryza sativa Indica Group x Oryza sativa Japonica Group with 9 samples.

Results

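Expansins are cell wall proteins that loosen the wall at acid pH without cutting its polymers, so that cells can enlarge under turgor. They form the alpha family (EXPA) and the beta family (EXPB), and grasses carry an unusually large beta family, which includes the group 1 pollen allergens. In rice, several of these genes were described in growing internodes, coleoptiles and leaves, with gibberellin and submergence among the known cues in deepwater rice. The set described here was 10 of the 55783 loci listed in each library, chosen by locus ID and not by level. It held 5 alpha-expansins, EXPA1 (LOC_Os04g15840), EXPA2 (LOC_Os01g60770), EXPA4 (LOC_Os05g39990), EXPA8 (LOC_Os01g14650) and EXPA10 (LOC_Os04g49410). It also held 5 beta-expansins, EXPB2 (LOC_Os10g40710), EXPB3 (LOC_Os10g40720), EXPB4 (LOC_Os10g40730), EXPB6 (LOC_Os10g40700) and EXPB7 (LOC_Os03g01270). Of these, 9 passed the filter on low values (at least 3 libraries with FPKM of 1 or more) and EXPA8 did not.

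The study sequenced polyadenylated RNA from shoots of 14-day-old rice seedlings, with 3 libraries each of the japonica cultivar C92, the indica cultivar MH63 (Minghui 63, a restorer line) and their F1 hybrid. All seedlings were grown in water at 28 °C with 16 h of light and 8 h of dark, with no treatment and no transgene in any group. The labels write the cross in both orders, so the maternal parent of F1 is not given here. Levels are the FPKM values the authors deposited, fragments scaled to locus length and to library size, which allows levels of different genes to be compared. How plants were pooled or split into the 3 biological replicates is not described, and p-values reflect the scatter of these libraries. Differences are given as log2 fold changes of FPKM + 1, a scale on which changes of weakly expressed genes look smaller than they are, and a gene is called at a limma adjusted p below 0.05 over 21447 tested loci.

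Depth, read from the most frequent ratio of low values between libraries, lay between 0.955 and 1.24 times that of C92 library 1, and read totals are not given. Loci written down from general knowledge as markers were high for leaf and low for root. The summed FPKM of 5 leaf mesophyll loci was 11900 to 18200 in C92, 14700 to 16500 in MH63 and 12400 to 13900 in F1. Of 7 root loci, 5 stayed below 1 FPKM in every library, and the root sum was 5.26 to 7.25 in C92, 10.5 to 11.5 in MH63 and 9.45 to 10.6 in F1; its part in the differences described here was not tested. The 4 pollen loci and the 1 shoot meristem locus stayed below 1 FPKM in all 9 libraries, and none of the root, pollen or meristem loci was at 0 throughout. The 4 pollen loci are themselves beta-expansin loci and 1 root locus is an alpha-expansin locus. They return among the other expansin loci below, so they are not markers apart from the family. The summed FPKM of 7 loci of dividing cells was 28.1 to 47.1 in C92, 24.9 to 49.2 in MH63 and 11.5 to 36.4 in F1. In bulk shoots, fewer growing cells and less RNA per cell cannot be told apart.

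Beta-expansins carried most of the expansin signal of these shoots. Summed over the 5 members, the beta level in FPKM was 482 ± 72.5 for C92, 378 ± 30.0 for MH63 and 341 ± 56.7 for F1 (SD, n = 3 in each). The alpha sum was lower in each group, at 130 ± 34.8 in C92, 118 ± 5.69 in MH63 and 103 ± 16.5 in F1. EXPB3 alone made up 43.6% ± 1.54 of the summed level of all 10 members in C92, 49.3% ± 1.47 in MH63 and 48.9% ± 1.00 in F1. The order of the levels was nearly the same in the groups. EXPB3 came first, EXPA10, EXPA1 and EXPA8 came last in that order, and EXPB6 stood just above EXPA10, in each case with no overlap between the libraries of neighbouring genes from EXPB6 downwards. Between them, several neighbours did not differ beyond their spread. EXPB2 and EXPB7 overlapped in every group, EXPB4 and EXPA2 overlapped in MH63 and F1, and EXPA2 and EXPA4 overlapped in C92. EXPA2 and EXPB4 changed places in F1, where their means were 59.9 ± 14.4 and 58.9 ± 23.4 FPKM.

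**Figure D1:**
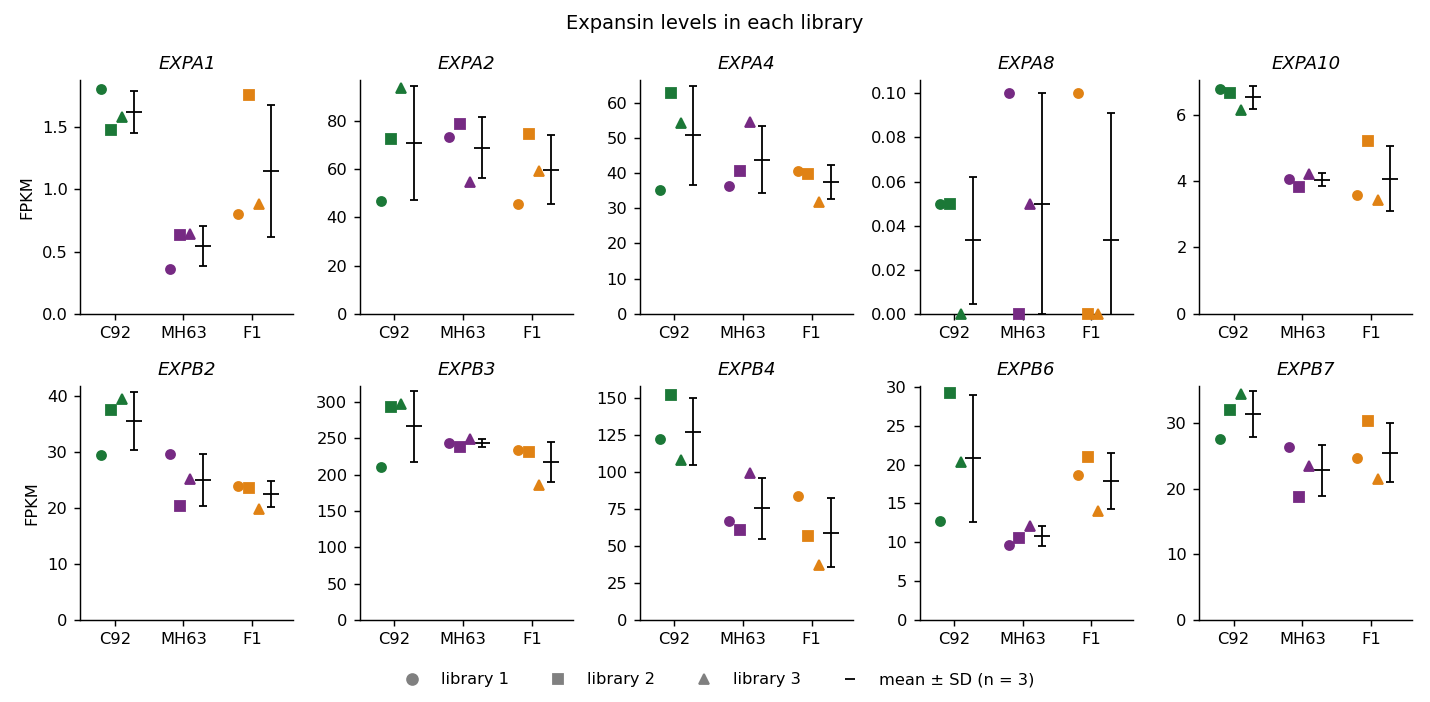
FPKM of each of the 10 expansins (vertical axes from 0, a scale of its own for each gene) in the 3 libraries of C92, MH63 and F1, with symbols for library number and the mean with SD (n = 3) beside them. EXPA1, EXPA10, EXPB4, EXPB6 and EXPB7 have every C92 library above every MH63 library, and EXPA8 does not exceed 0.10 FPKM anywhere.

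Between the parents, the expansins that differed were higher in C92. Of the 9 tested members, 4 were called higher in C92 and 0 lower: EXPA1, EXPA10, EXPB2 and EXPB6. Over all tested loci, 19.2% were called higher in C92, 14.9% lower and 34.1% in either direction. After quantile normalization 3516 loci were higher and 3748 lower in C92, in place of 4119 and 3194, and 3 members were called, all higher in C92. EXPA1 passed the filter mainly through the C92 libraries, where it is high, so without it the count is 3 of 8. EXPA1 is also part of the median and of the counts that follow, under the same limit. The members' median difference was 0.49 log2 units, against 0.03 over all tested loci. At an unadjusted p below 0.05, 6 members passed, against 44.3% of all tested loci. In 5 members, EXPA1, EXPA10, EXPB4, EXPB6 and EXPB7, the lowest C92 library exceeded the highest MH63 library, which held for 26.8% of all tested loci; the reverse held for 0 members and 21.3% of loci. Since the alignment reference is unknown here, lower expression in a parent and poorer alignment of its reads cannot be told apart.

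Among the alpha-expansins, EXPA1, first isolated from deepwater rice, was at a low level throughout. It measured 1.81, 1.48 and 1.58 FPKM in C92, 0.36, 0.63 and 0.64 in MH63, and 0.80, 1.76 and 0.88 in F1. C92 lay above MH63 without overlap, and F1 library 2 alone reached the C92 range. The difference between the parents was 0.77 log2 units (SE 0.17, limma adjusted p = 0.00726). After quantile normalization it was 0.51 and missed the threshold (adjusted p = 0.0628), and with a pseudocount of 0.1 it was 1.45 (adjusted p = 0.00621).

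EXPA10, which in rice roots is known for a part in cell elongation and in the response to aluminium, had the smallest standard error of the 9 tested members between the parents. Its level was 6.77, 6.66 and 6.13 FPKM in C92, 4.07, 3.83 and 4.22 in MH63, and 3.58, 5.20 and 3.44 in F1. Every C92 library stood above every other library. C92 exceeded MH63 by 0.58 log2 units (SE 0.13, limma adjusted p = 0.00849), and F1 fell below C92 by 0.58 (SE 0.13, adjusted p = 0.0129). F1 and MH63 overlapped, with a difference of -0.01 (95% interval -0.30 to 0.29).

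EXPA2 and EXPA4 were the abundant alpha-expansins, and neither was called in any comparison. EXPA4 is known in rice for effects of its dosage on plant height and coleoptile growth. EXPA2 measured 46.7, 72.5 and 94.0 FPKM in C92, 73.3, 79.0 and 54.8 in MH63, and 45.8, 74.6 and 59.4 in F1. EXPA4 measured 35.2, 63.0 and 54.3 FPKM in C92, 36.3, 40.7 and 54.7 in MH63, and 40.6, 39.9 and 31.9 in F1. Groups overlapped in every comparison of both genes, and for both genes the SD within C92 exceeded each difference between group means. The parental difference was 0.00 log2 units for EXPA2 (95% interval -0.58 to 0.59) and 0.19 for EXPA4 (95% interval -0.30 to 0.68). For EXPA2 its sign turned under other scalings, at -0.01 after quantile normalization and after median-ratio scaling. Differences of up to about these bounds could not be detected with this spread.

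EXPA8, described in rice roots, was close to silent. It was listed at 0 in 4 of the 9 libraries and at 0.05 or 0.10 FPKM in the others. C92 held 0.05, 0.05 and 0, MH63 held 0.10, 0 and 0.05, and F1 held 0.10, 0 and 0 FPKM. The groups overlapped, and a difference was not detectable at this depth. With no filter on low values limma gave differences of -0.02 to -0.00 log2 units and adjusted p-values of 0.815 to 1 over the 4 comparisons.

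Of the beta-expansins, 4 are neighbours on chromosome 10. In locus ID order EXPB6, EXPB2, EXPB3 and EXPB4 follow each other with no locus between them, and the RefSeq gene table (assembly ASM3414082v1) lists the same 4 symbols one after the other. Expansins of this cluster were described in rice in growing internodes. Copies in a tandem cluster can share reads, so how the counting divided reads among them is uncertain and was not tested. The sum over the cluster was 375, 512 and 465 FPKM in C92, 349, 330 and 385 in MH63, and 360, 332 and 256 in F1. Sums of C92 and MH63 overlapped, and so did those of MH63 and F1, while every F1 sum lay below every C92 sum.

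EXPB3, the most abundant member, measured 211, 294 and 298 FPKM in C92, 243, 239 and 249 in MH63, and 234, 231 and 185 in F1. It was called in no comparison. Every F1 library lay below every MH63 library, by a mean of 0.18 log2 units (SE 0.15, limma adjusted p = 0.448), and 15.4% of all tested loci were likewise lower in F1 without overlap. The parental difference was 0.12 log2 units (95% interval -0.21 to 0.45).

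EXPB4 showed the widest range of the cluster, from 36.8 to 152 FPKM. It measured 122, 152 and 108 FPKM in C92, 66.4, 60.5 and 99.0 in MH63, and 83.4, 56.4 and 36.8 in F1. All 3 C92 libraries stood above those of both other groups, which overlapped. F1 fell below C92 by 1.16 log2 units (SE 0.28, limma adjusted p = 0.0178), a 2.24-fold difference. Between the parents the difference was 0.77 (SE 0.28, adjusted p = 0.0644), which missed the threshold.

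EXPB2, whose knockdown in rice is known to affect root growth, measured 29.5, 37.6 and 39.4 FPKM in C92, 29.6, 20.4 and 25.1 in MH63, and 23.9, 23.6 and 19.7 in F1. Parents overlapped, with C92 library 1 just under MH63 library 1, and F1 lay wholly below C92. C92 exceeded MH63 by 0.49 log2 units (SE 0.15, limma adjusted p = 0.0339), and F1 fell below C92 by 0.64 (SE 0.15, adjusted p = 0.0169).

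EXPB6 measured 12.8, 29.2 and 20.4 FPKM in C92, 9.70, 10.5 and 12.1 in MH63, and 18.7, 21.0 and 14.0 in F1. MH63 was the low group, below every library of C92 and of F1. C92 exceeded MH63 by 0.82 log2 units (SE 0.26, limma adjusted p = 0.0343). F1 differed from MH63 by 0.67 (SE 0.26, adjusted p = 0.104) and from C92 by -0.15 (SE 0.26, adjusted p = 0.7), neither called. The share of EXPB6 in the cluster sum was 5.19%, 6.32% and 5.46% in F1 and 2.78%, 3.19% and 3.15% in MH63, with no overlap, while C92 held 3.40%, 5.69% and 4.38%. This share was singled out after the values were seen and was not tested.

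**Figure D2:**
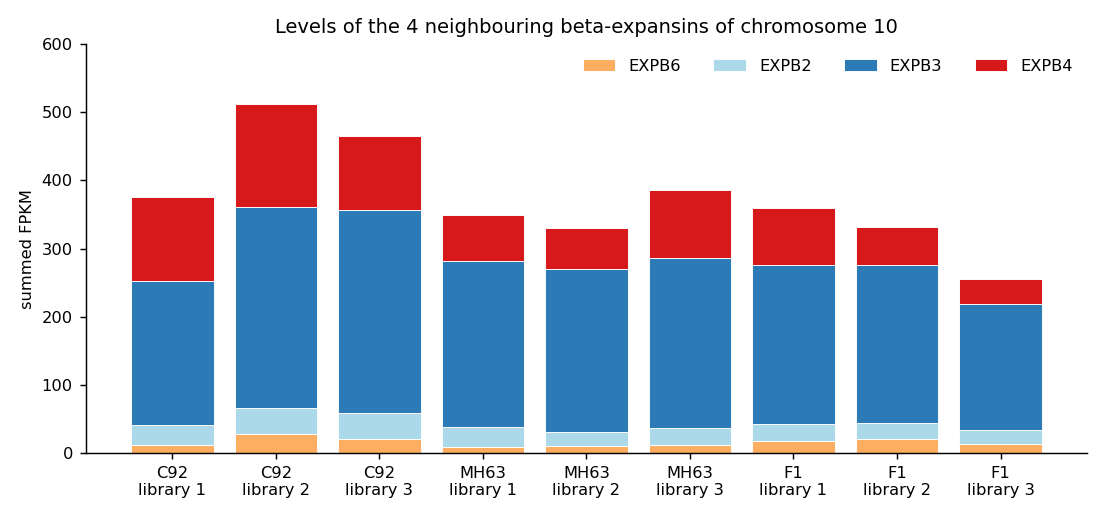
Stacked FPKM (vertical axis from 0) of EXPB6, EXPB2, EXPB3 and EXPB4 in each of the 9 libraries, 1 bar per library. EXPB3 is the largest part of every bar, between 56.3% and 72.4% of the sum, and the EXPB4 part is smallest in F1 library 3, at 36.8 FPKM.

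EXPB7 lies apart from the cluster, on chromosome 3. It measured 27.6, 32.1 and 34.4 FPKM in C92, 26.4, 18.7 and 23.4 in MH63, and 24.7, 30.4 and 21.5 in F1. C92 stood above MH63 by a narrow margin without overlap, and F1 overlapped both. The parental difference was 0.45 log2 units (SE 0.16, limma adjusted p = 0.0523), just beyond the threshold.

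The parental calls of EXPA1 and EXPA10 held when any single library was left out. The filter was kept as set on all 9 libraries, so for EXPA1 this holds under the limit named above. That of EXPB2 was lost without C92 library 2 or 3 or MH63 library 2 or 3, and that of EXPB6 without C92 library 2 or 3 or MH63 library 1 or 2, which leaves 2 members called without C92 library 2, C92 library 3 or MH63 library 2. Where the call was lost, C92 still exceeded MH63, by 0.36 to 0.50 log2 units for EXPB2 (0.49 with all libraries) and by 0.75 to 0.80 for EXPB6 (0.82), or 0.55 without C92 library 2. EXPB4 was called without MH63 library 3, F1 library 1 or F1 library 3 (adjusted p = 0.0332, 0.0324 and 0.0283), and EXPB7 without C92 library 1, MH63 library 1, F1 library 2 or F1 library 3 (0.0456, 0.0375, 0.0385 and 0.0440).

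The hybrid was set against each parent to find where its expansin levels departed from them. Against C92, 3 of the 9 tested members fell in F1 and 0 rose: EXPA10, EXPB2 and EXPB4. Over all tested loci, 13.7% fell, 10.6% rose and 24.3% were called in either direction. The median difference of the members was -0.31 log2 units, against 0.03 over all tested loci. In the same 3 members every F1 library lay below every C92 library, which held for 20.7% of all tested loci. The other 6 members differed from C92 by -0.15 (EXPB6) to -0.40 (EXPA4) and were not called. At an unadjusted p below 0.05, the same 3 members passed, against 38% of all tested loci.

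Without F1 library 3, 0 of the 9 members were called, and 3034 in place of 5207 loci. The differences stayed below 0, at -0.50 for EXPA10 (limma adjusted p = 0.0503), -0.55 for EXPB2 (0.0661) and -0.87 for EXPB4 (0.0533). Without C92 library 2, EXPA10 alone remained called, since EXPB2 (-0.59, adjusted p = 0.0634) and EXPB4 (-1.03, 0.0713) missed the threshold, as did EXPB2 without C92 library 3 (-0.56, 0.0640). Without C92 library 1 the count rose to 5, with EXPA4 (-0.64, adjusted p = 0.0395) and EXPB3 (-0.45, adjusted p = 0.0299) added, and without F1 library 2 EXPA1 was called (-0.51, adjusted p = 0.0278).

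Against MH63, limma called 0 of the 9 tested members, against 18.9% of all tested loci (11.5% higher and 7.38% lower in F1). After quantile normalization 2037 loci were higher and 2000 lower, in place of 2474 and 1583. At an unadjusted p below 0.05, 2 members passed, EXPA1 and EXPB6, both higher in F1, against 32.5% of all tested loci. The median difference was -0.14 log2 units, against 0.02 over all tested loci. EXPA1 and EXPB6 were also the members whose F1 libraries all lay above those of MH63, which held for 22.1% of all tested loci. EXPA1 passed the filter through libraries of C92 and F1 and none of MH63, so the filter favoured this direction. Without C92 library 1, which enters this comparison through the shared spread, EXPB6 was called (0.67, adjusted p = 0.0341), as it was with F1 and MH63 alone in the fit (adjusted p = 0.0317).

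The mid-parent, the mean of both parents, is the level that equal and unchanged activity of both parental copies would give. Against it, limma called 0 of the 9 members, beside 8.94% of all tested loci (3.36% higher and 5.58% lower in F1). With the mid-parent averaged on the log2 scale the balance turned, with 1496 loci higher and 1103 lower in place of 721 and 1196, and still 0 members called. At an unadjusted p below 0.05, 3 members passed, each lower in F1, against 27.5% of all tested loci. These were EXPB4, at -0.83 log2 units (SE 0.25, limma adjusted p = 0.0693), EXPB2, at -0.41 (SE 0.13, adjusted p = 0.0867), and EXPA10, at -0.32 (SE 0.12, adjusted p = 0.109). EXPB4 was called without F1 library 1 (-1.11, adjusted p = 0.0318) and EXPA10 without F1 library 2 (-0.48, adjusted p = 0.0314). For the 4 members called between the parents, the position of F1 was 0.559 for EXPA1, 0.710 for EXPB6, 0.0134 for EXPA10 and -0.250 for EXPB2, where 0 is the MH63 mean and 1 the C92 mean in FPKM. The F1 libraries overlapped those of C92 for EXPA1 and EXPB6 and those of MH63 for EXPA10 and EXPB2. The position of EXPA1 fell to 0.275 without F1 library 2, and that of EXPB6 was 1.22, above C92, without C92 library 2. For EXPA10 it ranged from -0.214 to 0.141 and for EXPB2 from -0.608 to -0.0275 when single libraries were left out, the extremes being without F1 library 2 and F1 library 3 for EXPA10 and without MH63 library 2 and MH63 library 1 for EXPB2.

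**Figure D3:**
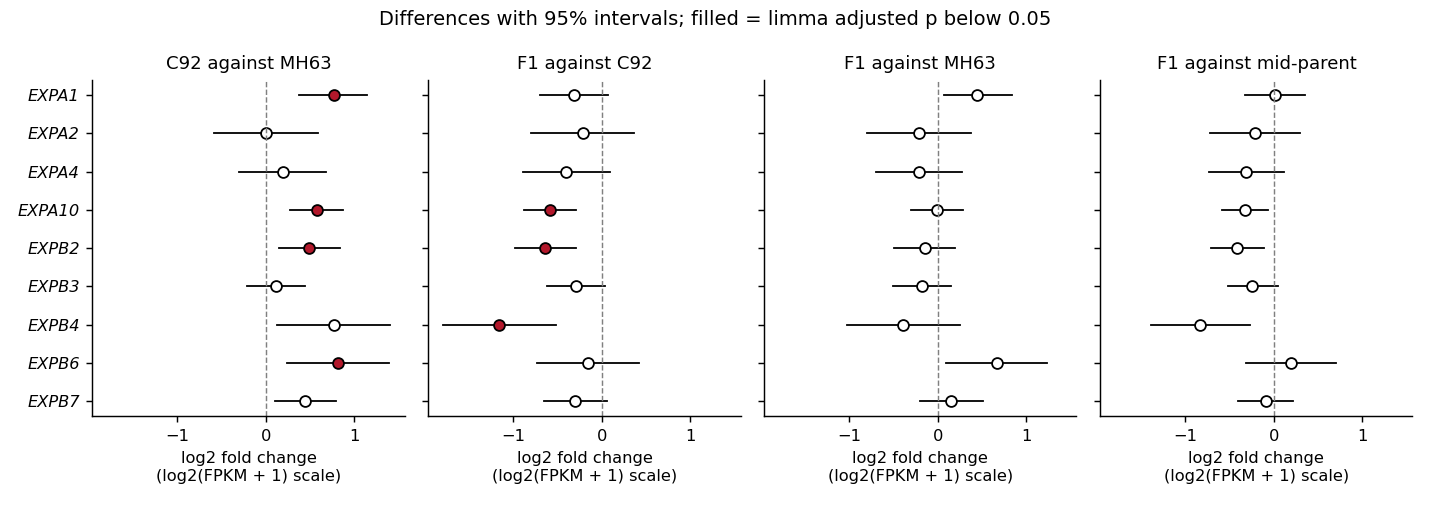
Log2 fold changes on the log2(FPKM + 1) scale (horizontal axes) of the 9 tested expansins in 4 comparisons, with 95% intervals from the limma fit and filled points for an adjusted p below 0.05. Filled points are EXPA1, EXPA10, EXPB2 and EXPB6 between the parents, and EXPA10, EXPB2 and EXPB4 in F1 against C92; the other 2 panels hold none.

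In each group, several expansins were low in the same library. In F1 library 3, 7 of the 9 tested members had their lowest F1 value, and the members' median lay 0.22 log2 units below the group mean (-0.22, against -0.04 for all tested loci). Of all tested loci, 43.4% were lowest in that library. In C92 library 1, 6 of the 9 members were lowest in their group, with a median of -0.25, against 0.02 and 32.2% for all tested loci. The 3 members not lowest there were EXPA1, EXPA10 and EXPB4. In MH63 the members' medians were close to 0, at -0.06 to 0.05, against -0.02 to 0.01 for all tested loci. Even so, 5 members were lowest in MH63 library 2 and 6 were highest in MH63 library 3. Of all tested loci, 26.6% were lowest and 33.6% highest in those libraries. F1 library 2 was on the high side, with a median of 0.24, 5 members highest and 0 lowest, against 0.02, 40.2% and 27.8% for all tested loci.

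The markers of dividing cells moved with the expansins in some of these libraries and against them in others. In F1 library 3, 7 of the 7 marker loci were lowest, with a median of -0.69, and in F1 library 2 the median was 0.63. All 7 were also lowest in C92 library 3 (median -0.31) and MH63 library 3 (-0.39), where the expansin medians were 0.13 and 0.05. In MH63 library 2 all 7 were highest, with a median of 0.43, and the expansin median was -0.06. In C92 library 1 the 7 loci were likewise highest, with a median of 0.29, where the expansins were low. Limma called 0 of the 7 in each of the 4 comparisons (at an unadjusted p below 0.05, 1 against C92 and 1 against the mid-parent), and in F1 all 7 lay below both parents on average, with medians of -0.63 against C92 and -0.54 against MH63. The part of this difference in the expansin levels was not tested.

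**Figure D4:**
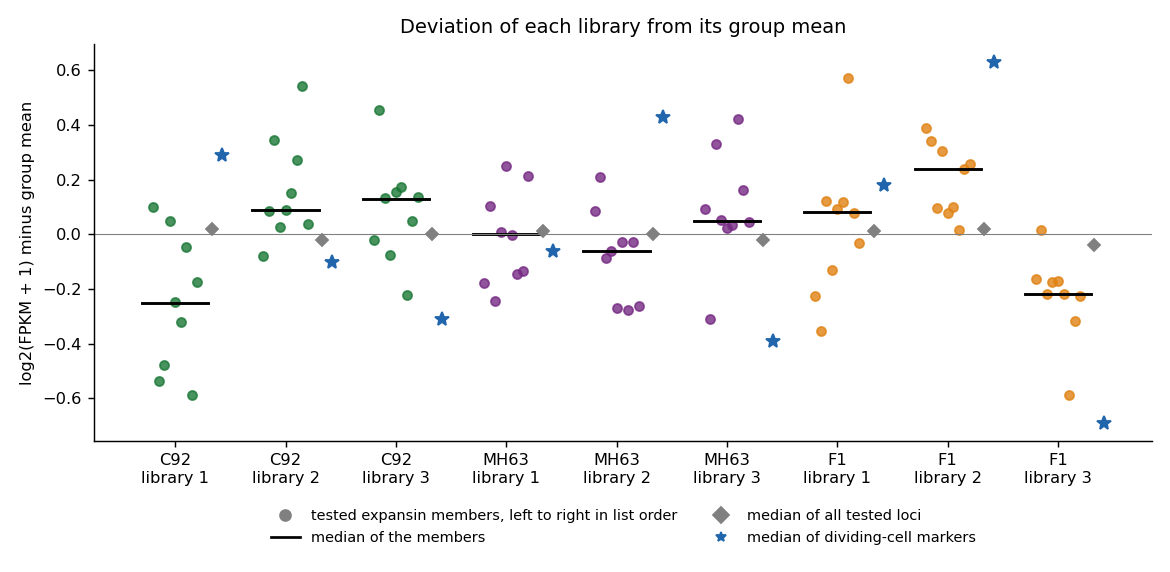
Log2(FPKM + 1) of each tested expansin minus its group mean (vertical axis), by library, with the median of the members (line), of all tested loci (diamond) and of the dividing-cell markers (star). The members' medians are lowest in C92 library 1 (-0.25) and F1 library 3 (-0.22) and highest in F1 library 2 (0.24).

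The rest of the expansin family was described from 36 further loci written down from general knowledge, of which 34 lie within 0.05 of the rank along the chromosome at which the RefSeq table places an expansin of the same family. They are given by ID, since their IDs are paired with gene names nowhere in the files or the table. Of the 34, 14 passed the filter on low values: 6 of 17 alpha, 4 of 13 beta and 4 of 4 expansin-like A loci. Between the parents, 8 of the 14 were called higher in C92 and 0 lower, 5 alpha and 3 beta, beside the 19.2% and 14.9% of all tested loci. In F1, 6 of the 14 fell against C92, 3 alpha and 3 beta, and 0 rose, beside 13.7% of all tested loci. Their median difference was 0.61 log2 units between the parents and -0.47 in F1 against C92. Against MH63, 1 of the 14 fell in F1 and 0 rose, beside 7.38% and 11.5% of all tested loci. It was LOC_Os03g06000 (-0.56, limma adjusted p = 0.0223), at most 1.47 FPKM. This locus passed the filter only through C92 library 3 (1.01 FPKM) and MH63 libraries 2 and 3 (1.25 and 1.47). F1 held 0.41, 0.80 and 0.36 FPKM, so the filter itself favoured a fall in F1. Against the mid-parent, 1 fell, LOC_Os02g42650 (-1.23, limma adjusted p = 0.0165), and 0 rose, beside 5.58% and 3.36%. At an unadjusted p below 0.05, 8 of the 14 passed there, in both directions, against 27.5% of all tested loci. Of the 4 expansin-like A loci, limma called 0 in each of the 4 comparisons, with a median of -0.07 between the parents. At an unadjusted p below 0.05, 0 of them passed between the parents, 2 in F1 against C92, 1 against MH63 and 2 against the mid-parent.

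Differences between the parents were wider in some of these loci than in any member. The beta locus LOC_Os02g44108 measured 31.1, 48.4 and 49.7 FPKM in C92, 10.2, 12.4 and 10.5 in MH63, and 19.4, 20.8 and 12.8 in F1. C92 exceeded MH63 there by 1.85 log2 units (SE 0.21, limma adjusted p = 0.000121), and F1 fell below C92 by 1.24 (SE 0.21, adjusted p = 0.00381). The beta locus LOC_Os02g42650 measured 26.4, 22.6 and 22.0 FPKM in C92, 6.64, 7.10 and 4.81 in MH63, and 9.32, 5.35 and 3.70 in F1. Its libraries did not overlap between C92 and either other group, with a parental difference of 1.79 (SE 0.25, adjusted p = 0.000509). These 2 loci were chosen after their values were seen. Without C92 library 3 the count between the parents fell to 3, without C92 library 2 or MH63 library 3 to 5, and without C92 library 2 the count of falls in F1 was 3.

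**Figure D5:**
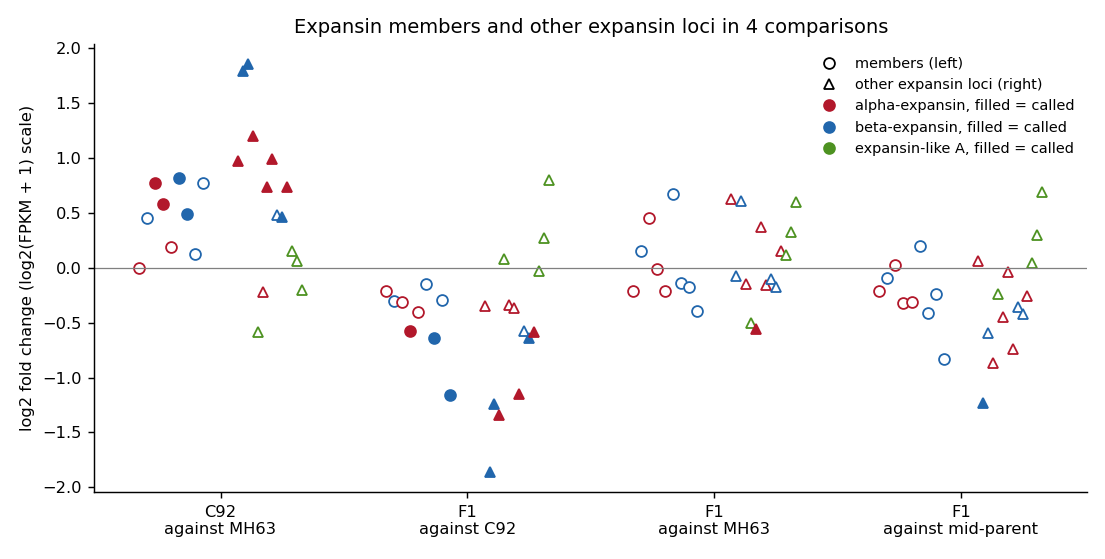
Log2 fold changes (vertical axis, log2(FPKM + 1) scale) of the 9 tested members (circles) and 14 other tested expansin loci (triangles) in 4 comparisons, coloured by family and filled where the limma adjusted p is below 0.05. Between the parents the filled points are 4 members and 8 other loci, each above 0, and in F1 against C92 they are 3 members and 6 other loci, each below 0. F1 against MH63 and F1 against the mid-parent each hold 1 filled other locus, below 0, and 0 filled members. The comparisons share libraries.

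The pattern of the leading member of each family was set against the 10415 other tested loci averaging at least 10 FPKM, by the Pearson correlation of log2(FPKM + 1) over the 9 libraries. These are descriptions: the points share libraries and groups, and the highest of so many correlations is high in any case. For EXPB3, the closest loci were LOC_Os09g38750 (r = 0.960) and LOC_Os01g05694 (r = 0.926). LOC_Os01g05694 ranged from 40.2 FPKM in F1 library 3 to 98.7 in C92 library 2. For EXPA2, they were LOC_Os09g33500 (r = 0.917) and LOC_Os03g46300 (r = 0.894). Among the members themselves, the correlation over the 9 libraries was above 0 in 35 of the 36 pairs, with a median of 0.54. It was highest for EXPA4 with EXPB3 (r = 0.89) and lowest for EXPA2 with EXPB4 (r = -0.07). These values include the differences between groups. For deviations from the group means, 33 of the 36 pairs were above 0, with a median of 0.39, and EXPA2 with EXPB4 was at -0.47. Pairs of other loci were not set beside these counts.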

How the data were processed

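Polyadenylated RNA of 9 shoot libraries was sequenced, 3 each of C92, MH63 and F1. Reads were aligned with HISAT2 2.0.5, per the submitters' processing notes; for build, annotation, strand and counting program, nothing is stated in the sources used here. FPKM values, 1 per locus and library, were computed and deposited by the authors. They are no counts, so limma 3.58.1 in R 4.3.3 was used on log2(FPKM + 1), 1 fit over 9 libraries with group means, an intensity trend and Benjamini-Hochberg adjustment over the 21447 loci that reached FPKM 1 in 3 or more libraries. The mid-parent error came from the delta method, and the fit was tested on simulated data. Depth was read from the most frequent ratio of low values; no counting interval can be given without read totals, so precision rests on 3 libraries a group. The members, lists and tests were chosen with earlier results of these data known. Members carry the names given with their IDs; the RefSeq table (assembly ASM3414082v1) holds all 10 symbols on the same chromosome and within 0.0221 of the same rank along it. Members were named whatever their values, and likeness followed a fixed rule (2 closest loci for the most abundant member of each family). Alternatives covered pseudocount, filter, scaling, block, variance trend, libraries fitted and each library left out.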

Additional observations from a re-analysis of the deposited data

How the results depend on the processing

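No called difference of a member changed direction under any alternative, and most values stayed on their side of the threshold: of the fold changes recomputed, 552 kept direction and call, 20 lost a call, 16 gained one and 16 changed sign, none of these called. The cause of these changes was not tested unless fewer loci or libraries are named. Many of the recomputed fold changes could not change direction. The filters, the replicate block, the variance trend and libraries outside a comparison do not enter the fold change. They alter only its adjusted p, so the number that kept direction overstates how far direction was put to the test.

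With no filter on low values, 2 of 10 members were called between the parents in place of 4 of 9, EXPA1 and EXPA10. Beside them, 8368 of 44340 loci were called between the parents, in place of 7313 of 21447. Against the mid-parent, 912 loci were called in place of 1917. A mean FPKM of at least 5 left fewer loci, 14199, and dropped EXPA1 and EXPA10. There 2 of 7 members were called between the parents, EXPB2 and EXPB6. Of the 14199 loci, 4538, 3359 and 2289 were called between the parents, in F1 against C92 and in F1 against MH63. With F1 and MH63 alone in the fit, 1 member was called between them in place of 0, beside 3589 of 21446 loci. With C92 and MH63 alone in the fit the count stayed at 4, beside 7090 of 21447 loci. However, EXPB2 (limma adjusted p = 0.0541) and EXPB6 (0.0513) lost the call and EXPB4 (0.0267) and EXPB7 (0.0492) gained it. Of the other expansin loci, 4 of 7 in place of 8 of 14 were called between the parents at a mean FPKM of at least 5. In F1 against MH63 it was 0 of 7 in place of 1 of 14. The locus otherwise called there, LOC_Os03g06000, averaged 0.89 FPKM and was dropped by this filter. Against the mid-parent, 2 other expansin loci in place of 1 were called with a pseudocount of 0.1 or median-ratio scaling. The same held for the replicate block, no intensity trend and the log2-scale mid-parent, and 3 were called after quantile normalization. These counts for other expansin loci, the F1 positions without single libraries and the EXPA8 test without a filter were added after the data had been seen.

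When single libraries were left out, the members called numbered 2 to 6 between the parents, 0 to 5 in F1 against C92, 0 to 1 against MH63 and 0 to 1 against the mid-parent. Loci called ranged from 5466 to 7435, 3034 to 5585, 2842 to 4088 and 505 to 1827 in the same order, and other expansin loci from 3 to 8, 3 to 7, 0 to 2 and 0 to 2. Of these other loci, 1 was called higher in F1 than in MH63 without F1 library 3, where 0 were lower. The same count was higher without C92 library 1, where 1 was lower. Against C92, 1 was called higher in F1 without MH63 library 2, as with no filter on low values. Uncalled differences that changed sign ranged from -0.22 to 0.27 for EXPA2 between the parents, -0.48 to 0.01 for EXPA2 and -0.45 to 0.12 for EXPB6 in F1 against C92, -0.16 to 0.08 for EXPA10 in F1 against MH63, and -0.18 to 0.13 for EXPA1 and -0.22 to 0.02 for EXPB7 against the mid-parent. EXPA2 between the parents was -0.01 after quantile normalization and after median-ratio scaling, and EXPA1 against the mid-parent was -0.19 after quantile normalization.

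Whether the replicate numbers pair the libraries could not be decided. Deviations of same-numbered libraries correlated at -0.432 to 0.343, and those of differently numbered libraries at -0.413 to 0.415. Such correlations over all tested loci do not show whether libraries of 1 number shared a batch or harvest. With the number as a replicate block, 3 of 9 members were called between the parents, beside 6645 of 21447 loci. In F1 against C92, 3 were called, beside 4584 loci. Against MH63, 0 were called, beside 3479 loci, and against the mid-parent 0, beside 1316. EXPB2 was lost between the parents (limma adjusted p = 0.0662).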
